A study of Arabidopsis thaliana with 18 samples.

Results

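The 33 genes described here make up the pathway that builds and breaks down starch in Arabidopsis thaliana, from the supply of hexose phosphate to the export and use of maltose. They were taken from a list of locus identifiers, and no measured value entered the choice. All 33 were found among the 33602 loci of the count table of the second set, and 31 were matched to one of the 33201 loci of the first set. Phosphoglucomutase (PGM1) and phosphoglucan, water dikinase (PWD) had no matched locus in the first set and are described in the second set alone.

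Developing seeds of plants kept under 16 h days were taken 9 to 10 days after flowering, and polyA RNA was sequenced. Wild type (labelled WT or Col-0) was compared with a badc1/badc3 double knockout made by crossing T-DNA insertion lines. BADC proteins resemble the biotin carrier of plastid acetyl-CoA carboxylase but carry no biotin and hold that enzyme back. The study asked how metabolism differs when this mutant makes more oil. The 18 libraries formed 6 groups of 3. COL0 (wild type) and badc-tdna13 (badc1/badc3) formed the first set. AtWT (wild type) and AtBD (badc1/badc3) belonged to the second set, with AtWTtr (wild type) and AtBDtr (badc1/badc3), whose titles end in "tr". The labels do not spell out "tr". They say that ribosome-associated RNA was isolated with HF-RPL18, a FLAG-tagged ribosomal protein driven by the glycinin promoter of soybean, a seed storage protein promoter that confines tagged ribosomes to cells in which it is active. No label says which libraries came from plants with the transgene, how many seeds or plants were pooled, or whether libraries of a group came from separate plants, so the p-values measure the spread between libraries, which may be technical.

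Starch is made in plastids. Phosphoglucose isomerase and phosphoglucomutase supply glucose 1-phosphate, ADP-glucose pyrophosphorylase turns it into ADP-glucose, starch synthases lengthen the glucan chains, branching enzymes add branch points and isoamylases trim them. Breakdown starts with glucan, water dikinases, which phosphorylate the granule surface. Beta-amylases then release maltose, alpha-amylases cut inside chains, and phosphatases take the phosphate off again. Maltose leaves through the exporter MEX1 and is used in the cytosol by DPE2. In the Arabidopsis embryo starch is transient: it builds up while the seed fills and is nearly gone at maturity, and its precursors are shared with the plastid fatty acid synthesis that feeds oil.

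The promoters of 5 members are shown because results below turn on these genes. SBE2.1 and SBE2.2 are the pair of branching enzymes whose balance differed, AMY1 and AMY3 are the alpha-amylases whose balance differed, and PHS1 had the largest difference between AtBD and AtWT. Each is the 300 bases before the annotated gene start in the RefSeq annotation of TAIR10.1, read 5′ to 3′ on the strand of the gene. The windows are chr2:15263911-15264210 (plus strand), chr5:931462-931761 (plus), chr4:12853846-12854145 (minus), chr1:26293174-26293473 (minus) and chr3:11252507-11252806 (plus). Capitals mark matches, on either strand, to the evening element AAATATCT, the CCA1 site AAAAATCT, the G-box CACGTG, the RY motif CATGCA, the ABRE core ACGTG, the I-box GATAAG or the amylase element TATCCA.

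SBE2.1: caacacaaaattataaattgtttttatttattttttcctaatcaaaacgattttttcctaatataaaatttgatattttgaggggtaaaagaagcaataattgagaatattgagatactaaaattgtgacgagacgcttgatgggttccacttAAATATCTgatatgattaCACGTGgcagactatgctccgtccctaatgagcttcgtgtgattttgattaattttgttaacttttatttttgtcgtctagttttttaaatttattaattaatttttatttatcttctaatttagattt

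SBE2.2: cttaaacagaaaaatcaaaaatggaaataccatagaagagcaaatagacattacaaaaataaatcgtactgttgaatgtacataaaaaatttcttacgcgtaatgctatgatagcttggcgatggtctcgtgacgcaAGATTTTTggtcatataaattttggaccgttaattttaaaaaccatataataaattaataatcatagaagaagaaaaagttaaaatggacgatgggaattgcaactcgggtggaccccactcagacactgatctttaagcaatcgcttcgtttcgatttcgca

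AMY1: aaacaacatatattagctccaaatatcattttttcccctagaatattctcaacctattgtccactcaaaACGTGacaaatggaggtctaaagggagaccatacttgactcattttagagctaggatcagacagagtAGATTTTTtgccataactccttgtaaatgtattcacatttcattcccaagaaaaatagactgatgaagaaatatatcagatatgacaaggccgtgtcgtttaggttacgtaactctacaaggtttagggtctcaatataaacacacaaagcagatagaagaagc

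AMY3: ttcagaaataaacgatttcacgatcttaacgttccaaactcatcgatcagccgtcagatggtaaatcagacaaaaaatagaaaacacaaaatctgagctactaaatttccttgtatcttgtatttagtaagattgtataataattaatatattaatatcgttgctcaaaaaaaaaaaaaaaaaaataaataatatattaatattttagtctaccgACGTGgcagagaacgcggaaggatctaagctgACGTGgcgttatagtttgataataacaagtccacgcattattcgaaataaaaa

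PHS1: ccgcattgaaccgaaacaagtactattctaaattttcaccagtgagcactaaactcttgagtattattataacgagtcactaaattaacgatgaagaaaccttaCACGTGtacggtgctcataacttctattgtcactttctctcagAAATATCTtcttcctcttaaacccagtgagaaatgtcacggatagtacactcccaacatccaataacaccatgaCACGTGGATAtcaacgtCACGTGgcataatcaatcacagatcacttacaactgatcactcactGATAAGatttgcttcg

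The G-box, which holds the ABRE core, was in 10 of the 33 promoters (30.3%), against 7.09% of the 27443 nuclear protein-coding promoters of that length. The ABRE core, inside a G-box or outside it, was in 15 (45.5%, against 25.6%), among them the 10 with a G-box. The evening element was in 6 (18.2%, against 5.64%) and the CCA1 site in 5 (15.2%, against 7.94%). The RY motif, found in many seed maturation genes, was in 4 (12.1%, against 10.3%), the I-box in 5 (15.2%, against 14.5%) and the amylase element in 5 (15.2%, against 16.2%). The AW-box bound by WRI1, a longer motif, was searched as well but is not set in capitals. It was in 10 of 33 (30.3%, against 11.0%). PHS1 held 3 G-boxes, and SBE2.1 held an evening element beside a G-box, while SBE2.2 and AMY1 each held a CCA1 site. The genes with an evening element were PGM1, APL4, SBE2.1, ISA3, PWD and PHS1. These are matches of letters, not measured binding.

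The libraries held 9546528 to 11574156 fragments in the first set and 16977673 to 32547007 counts in the second. Levels are given as CPM, counts scaled to a common library total after TMM adjustment, and a gene was called at a Benjamini-Hochberg adjusted p under 0.05 in edgeR's quasi-likelihood test over all genes. In the second set BADC3 had 67.6 to 82.1 CPM in AtWT and 0.0792 to 0.697 in AtBD, and BADC1 had 65.8 to 80.0 and 1.61 to 2.61. In the first set BADC3 had 64.6 to 91.4 CPM in COL0, 3.32 in the lowest badc-tdna13 library and 64.6 in the library labelled badc-tdna13 replicate 2. That library and COL0 replicate 2 held the same whole number of fragments at 17287 of 17287 loci compared. Loci with few fragments or with a quantification status other than OK were not compared. Over all loci, the totals differed, at 10787634 in badc-tdna13 replicate 2 and 10624146 in COL0 replicate 2. Both libraries were left out of the tests of the first set, which compare 2 libraries with 2. Values with them are given beside the counts. Marker lists also separated the groups. Summed CPM of 9 embryo storage genes was 137000 to 188600 in AtWT, 227400 to 282400 in AtBD, 517100 to 835000 in AtWTtr and 487700 to 784600 in AtBDtr. Summed CPM of 8 seed coat genes was 1360 to 1884, 647 to 1111, 121 to 187 and 115 to 152 in the same order. In the first set 3 of the 9 storage genes (CRA1, CRU3 and SESA3) were listed at 0 in all 6 libraries. In whole-seed RNA, fewer cells of a type and less RNA per cell cannot be told apart.

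**Figure D1:**
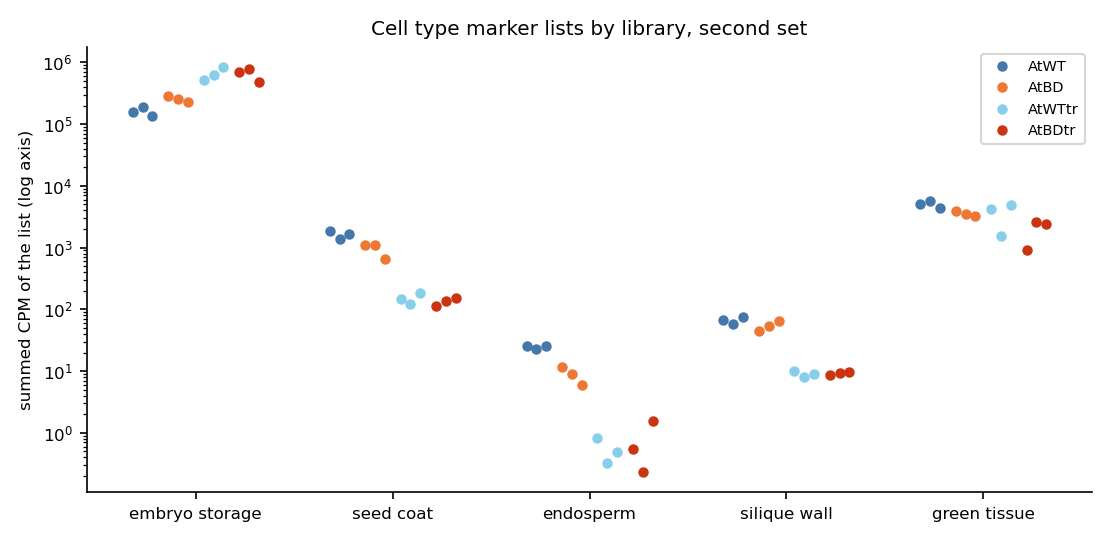
Summed CPM (log axis) of the 5 marker lists in each of the 12 libraries of the second set, 1 point per library, coloured by group. The embryo storage points of the tr libraries lie above those of AtWT and AtBD, and their seed coat, endosperm and silique wall points lie below.

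Transcript level per length of exon ordered the pathway in wild-type seeds as follows. In AtWT, the chloroplast beta-amylase BAM1 (87.3 ± 10.8 CPM per kb, SD, n = 3) and the small subunit of ADP-glucose pyrophosphorylase, APS1 (72.0 ± 13.0), were at the top, with overlapping libraries. PGI1, the plastid isomerase, followed at 41.5 ± 7.11 and AMY1, an alpha-amylase with a signal for secretion, at 31.8 ± 2.81, each apart from its neighbour below. From SEX4 (26.5 ± 1.69), the phosphoglucan phosphatase, to PGM1 (13.8 ± 0.922) neighbours in the order overlapped. The lower end held the isoamylase subunit ISA1 (4.15 ± 1.07), the phosphatase-like protein LSF1 (3.23 ± 0.639), the large subunit APL4 (3.00 ± 0.568), the granule-initiating synthase SS4 (2.81 ± 0.971) and limit dextrinase, LDA (1.63 ± 0.133). In AtWTtr the order differed at the top: APS1 led at 104 ± 10.9 CPM per kb, all its libraries above those of PGI1 (35.5 ± 9.03), and BAM1 stood at rank 3, at 34.5 ± 7.07. AMY1 moved from rank 4 to rank 30, at 2.16 ± 0.495 CPM per kb.

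**Figure D2:**
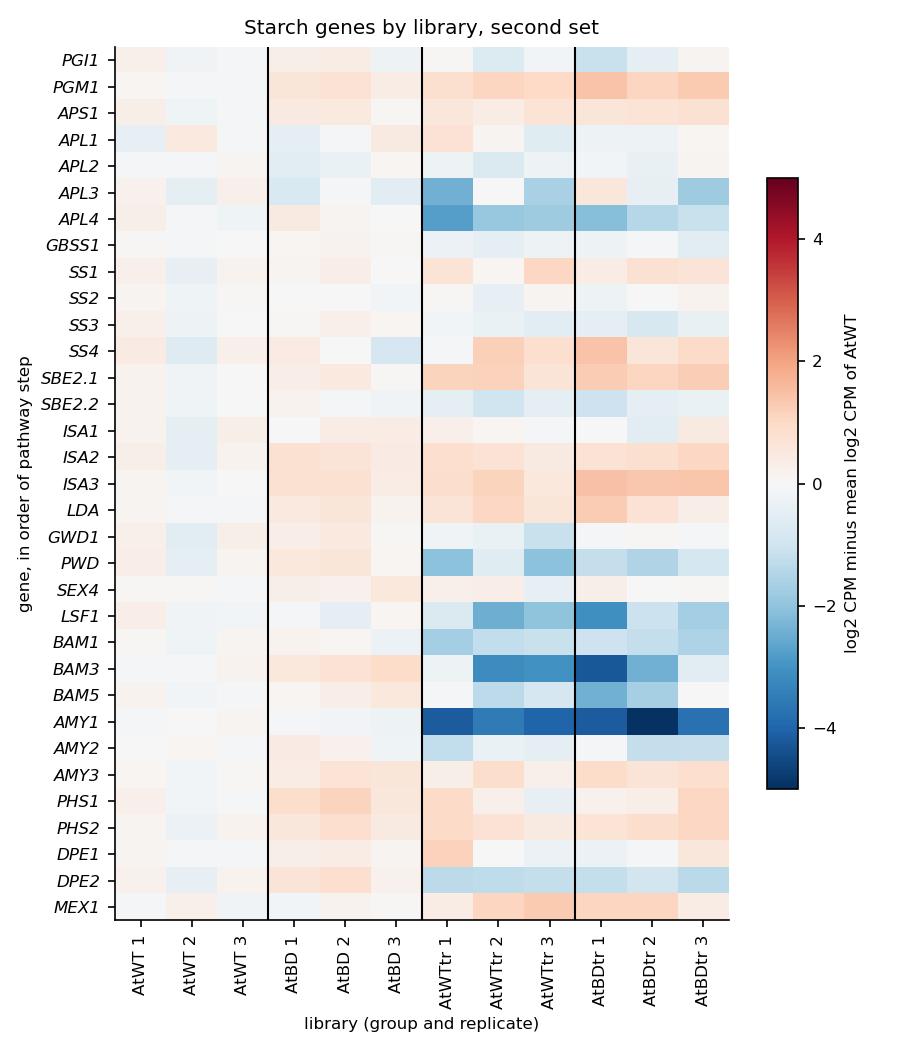
Heat map of the 33 genes (lines, in pathway order) in the 12 libraries of the second set (columns); colour is log2 CPM minus the mean log2 CPM of AtWT. AMY1 is dark in all 6 tr libraries, at 1.67 to 4.37 CPM against 42.3 to 56.1 in the others.

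The tr libraries were first compared with the other libraries of wild type. AMY1, BAM1, DPE2, PWD, LSF1, APL4 and SBE2.2 fell, and PGM1, SBE2.1, ISA3, MEX1, PHS2, LDA, ISA2 and APS1 rose, so 7 of 33 members were lower, where 19.1% of all genes tested were lower, and 8 were higher, where 15.1% were. The median log2 difference of the members was -0.06, and that of all genes -0.04. In badc1/badc3, AtBDtr against AtBD, 10 of 33 members were lower (16.9% of all genes) and 5 higher (12.8% of all genes), with a median of -0.22 for the members and -0.03 for all genes. Lower in both genotypes were APL4, PWD, LSF1, BAM1, AMY1 and DPE2, and higher in both were PGM1, SBE2.1, ISA3 and MEX1. The 6 shared falls were 6 of the 7 in wild type and 6 of the 10 in badc1/badc3. The share of all genes called lower in both was not counted, so this overlap has no background to be read against. The comparisons share no libraries, but they were scaled and fitted together.

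These directions are relative to the bulk of genes. Library totals in place of TMM factors were a setting added after the data had been seen. Under it, the median of all genes was -0.99 in wild type and -0.73 in badc1/badc3. No member was called higher in either genotype (0 higher and 19 lower, and 0 higher and 15 lower). Of the 19376 genes tested, 437 were called higher and 10203 lower in wild type, and 424 and 7393 in badc1/badc3. The falls of APL4, PWD, BAM1, AMY1 and DPE2 were called under all 12 alternatives in both genotypes. Beside all of these results stand the marker values above: storage transcripts were higher in the tr libraries, and the sums of seed coat, endosperm (0.231 to 1.54 CPM against 5.97 to 25.6) and silique wall genes (8.15 to 10.11 against 44.0 to 74.1) were lower. Sums of 7 green tissue genes overlapped in wild type, at 1551 to 4920 CPM in AtWTtr and 4313 to 5666 in AtWT, and stood apart in badc1/badc3, at 928 to 2594 in AtBDtr and 3294 to 3885 in AtBD. Of these 7 genes, 4 were called lower in wild type and 6 in badc1/badc3. Of single markers, the seed coat transporter gene TT12 was at 0 in AtBD, AtWTtr and AtBDtr. The endosperm gene FIS2 was at 0 in both tr groups, MEA in AtWTtr and AGL62 in AtBD. These genes were also under 1 CPM in every AtWT library, so the zeros lie near the floor. AGL62 had 0.156, 0.231 and 0.496 CPM in AtBDtr, against 0.166, 0.373 and 0.183 in AtWT. The part of the marker genes in the results was not tested.

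**Figure D3:**
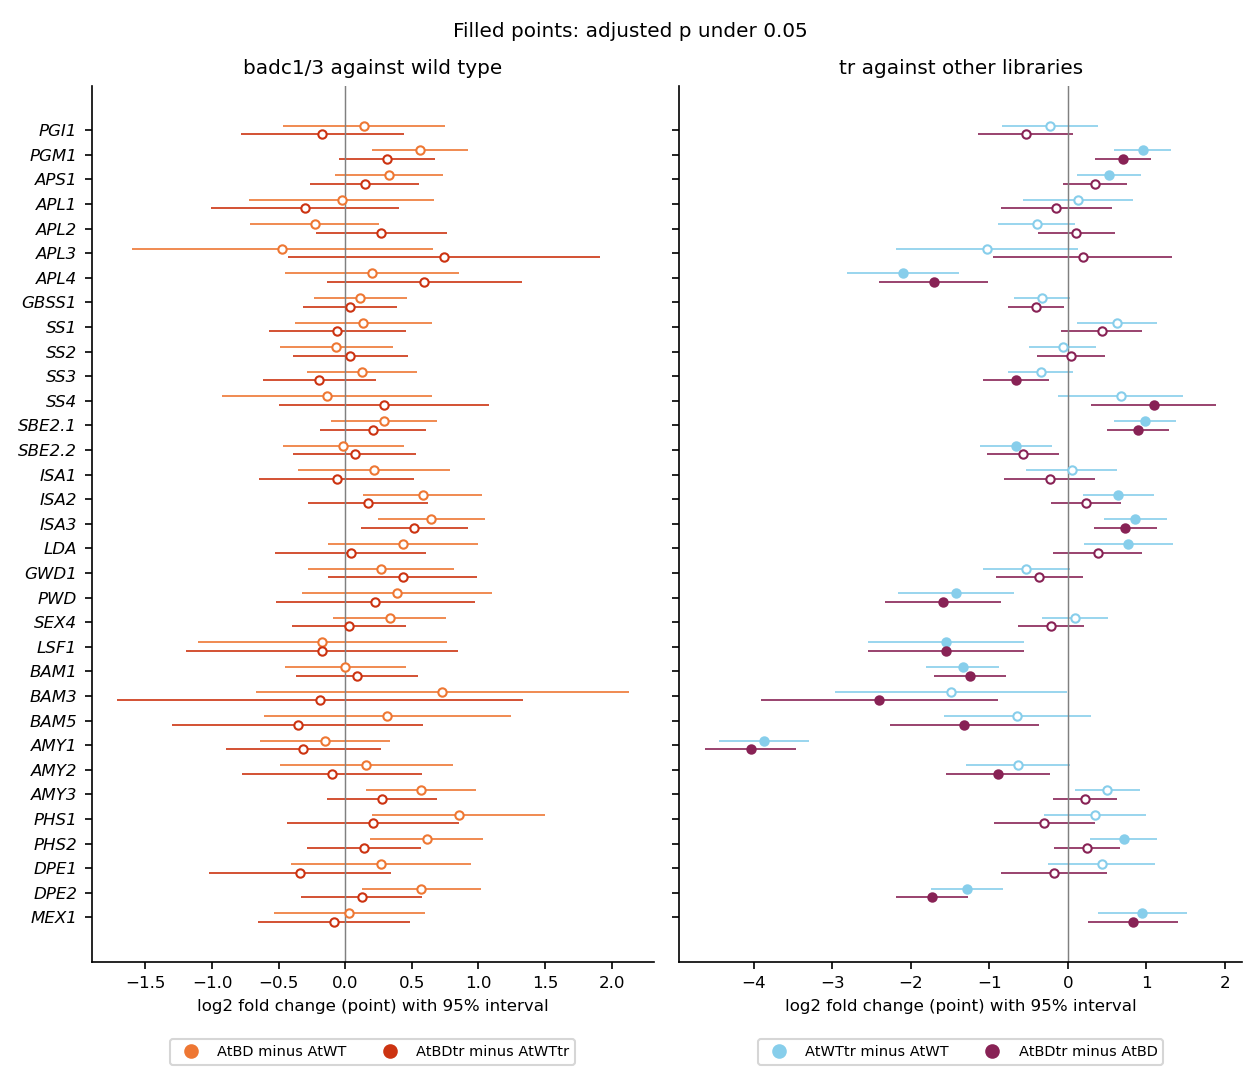
Log2 fold changes (x axis, points) with 95% intervals (lines) of the 33 genes for the genotype comparisons, left, and for tr against other libraries, right; filled points had an adjusted p under 0.05. No point is filled on the left, and on the right AMY1 lies furthest out, at -3.88 in wild type and -4.04 in badc1/badc3.

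Among the amylases, AMY1 (AT4G25000, chromosome 4, 12851795 to 12853845 in TAIR10.1) had 47.3, 49.9 and 56.1 CPM in AtWT and 2.87, 4.37 and 3.15 in AtWTtr. It had 48.8, 46.8 and 42.3 CPM in AtBD and 2.82, 1.67 and 3.86 in AtBDtr. All tr libraries were thus far below all others, and AMY1 fell by 3.88 (SE 0.27, adjusted p = 1.6e-07) on the log2 scale in wild type and fell by 4.04 (SE 0.27, adjusted p = 1.52e-07) in badc1/badc3. Its annotated span overlaps AT4G24990 on the same strand, and reads of the overlap cannot be told apart. BAM1, a beta-amylase of plastids, had 227, 190 and 243 CPM in AtWT and 66.8, 93.5 and 101 in AtWTtr, again without overlap, and fell by 1.34 (SE 0.22, adjusted p = 0.000262); in badc1/badc3 it fell by 1.25 (SE 0.22, adjusted p = 0.000592). BAM3, the main beta-amylase of leaf starch breakdown, had 11.3, 11.1 and 13.3 CPM in AtWT and 9.91, 1.35 and 1.47 in AtWTtr. AtWTtr replicate 1 was close to the AtWT libraries and the others of its group were far lower. The difference of -1.49 (SE 0.70) had an adjusted p of 0.111. In badc1/badc3 BAM3 had 17.3, 19.7 and 22.1 CPM in AtBD and 0.626, 2.25 and 8.05 in AtBDtr and fell by 2.40 (SE 0.71, adjusted p = 0.019), a call lost without AtBDtr replicate 2 (adjusted p = 0.0766). BAM5, a beta-amylase outside the plastid, and AMY2, an alpha-amylase without a plastid signal, were called lower in badc1/badc3 and not in wild type (-1.32, SE 0.45, adjusted p = 0.0366, and -0.89, SE 0.31, adjusted p = 0.0433), and each of these calls was lost under 6 of 12 alternatives. In all, 5 of the 6 amylases among the members were called lower in AtBDtr against AtBD, where 16.9% of all genes were. In AtWTtr against AtWT, 2 of 6 were, where 19.1% of all genes were. BAM2, BAM4 and BAM6 to BAM9, beta-amylases of the other starch genes given below, are not among these 6. None of them was called lower in AtBDtr against AtBD, and BAM2 was called lower in AtWTtr against AtWT. The test of the difference between the genotypes, given below, called 0 members. The amylase among the members called in neither was AMY3, the plastid alpha-amylase. It had 29.2, 25.2 and 28.4 CPM in AtWT and 33.7, 50.7 and 33.1 in AtWTtr, a difference of 0.51 (SE 0.19, adjusted p = 0.0557).

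Shares within an enzyme family do not depend on how libraries are scaled. Of the summed CPM per kb of the 3 alpha-amylases, AMY1 made up 65.97% ± 2.37 in AtWT and 11.1% ± 0.240 in AtWTtr (SD, n = 3 each), and AMY3 made up 18.4% ± 1.64 and 64.2% ± 4.58. In badc1/badc3 the AMY1 share was 57.1% ± 1.43 in AtBD and 8.01% ± 2.89 in AtBDtr, and the AMY3 share 26.2% ± 3.62 and 71.4% ± 5.71. The secreted form was thus the larger part without tr and the plastid form the larger part with it, in every library. AMY1 shares of AtBD (55.8% to 58.6%) also lay below all those of AtWT (63.7% to 68.4%), with AMY3 shares above (22.1% to 29.1% against 17.1% to 20.2%). The balance of the branching enzymes differed as well: the SBE2.1 share was 38.0% ± 0.970 in AtWT and 65.3% ± 7.78 in AtWTtr, and 43.0% ± 3.71 in AtBD and 67.9% ± 6.01 in AtBDtr. Among the 5 starch synthases, SS1, which makes short chains, had a share of 34.7% ± 3.65 in AtWT and 47.6% ± 7.25 in AtWTtr, and the amylose-making GBSS1 had 37.5% ± 4.38 and 26.7% ± 2.86. Each of these differences had an exact two-sided permutation p of 0.1, the smallest that 3 libraries against 3 allow, and 0.297 after adjustment over the 92 shares compared.

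**Figure D4:**
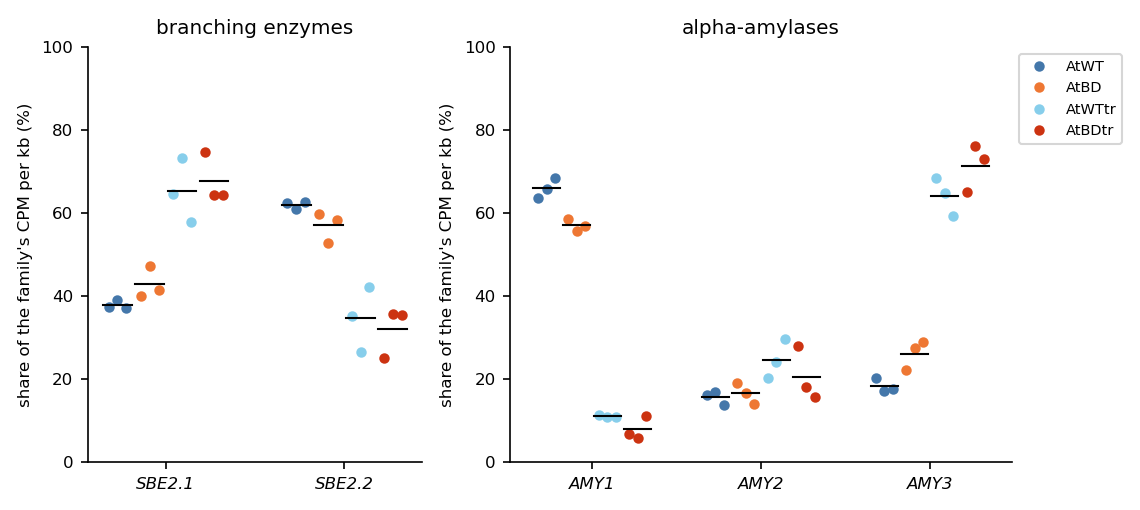
Share (%) of each gene in the summed CPM per kb of its family, for the 2 branching enzymes and the 3 alpha-amylases; 1 point per library, black bars are group means. SBE2.1 lies at 37.3% to 47.2% without tr and at 57.9% to 74.8% with tr, and AMY1 at 55.8% to 68.4% and at 5.80% to 11.3%.

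Among the branching and debranching enzymes, SBE2.1 (AT2G36390, chromosome 2, 15264211 to 15270092) had 33.4, 26.7 and 29.7 CPM in AtWT and 63.8, 66.7 and 47.2 in AtWTtr. In badc1/badc3 it had 37.1, 42.0 and 30.9 CPM in AtBD and 71.4, 62.8 and 70.8 in AtBDtr. No tr library overlapped the others, and the log2 differences were 0.99 (SE 0.19, adjusted p = 0.000957) and 0.90 (SE 0.19, adjusted p = 0.00232), which were 0.05 and 0.20 with library totals. SBE2.2 (AT5G03650) went the other way, with 55.8, 41.8 and 50.2 CPM in AtWT and 34.99, 24.3 and 34.5 in AtWTtr, and fell by 0.66 (SE 0.22, adjusted p = 0.0287); the difference was -0.57 (SE 0.22, adjusted p = 0.0584) in badc1/badc3. The call in wild type was lost without AtWT replicate 1, AtWT replicate 3 or AtWTtr replicate 2. ISA3, the isoamylase that removes short branches during breakdown, had 44.2, 35.8 and 39.7 CPM in AtWT and 73.3, 86.4 and 57.8 in AtWTtr. It was higher in both genotypes (0.86, SE 0.19, adjusted p = 0.00269, and 0.73, SE 0.19, adjusted p = 0.00865), and with library totals the values were -0.08 and 0.03. ISA2, the non-catalytic partner of ISA1, and LDA were called higher in wild type and not in badc1/badc3 (0.64 and 0.77), calls lost under 5 and 7 of 12 alternatives, and both had a negative sign with library totals. ISA1 was at 9.06 to 15.2 CPM in AtWT and 11.6 to 14.8 in AtWTtr, with a difference of 0.05 (SE 0.27, adjusted p = 0.907).

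Among the genes of precursor supply, PGM1 (AT5G51820, chromosome 5, 21063298 to 21068327) had 37.2, 33.2 and 33.2 CPM in AtWT and 59.7, 72.9 and 68.7 in AtWTtr, without overlap. It rose by 0.96 (SE 0.17, adjusted p = 0.00055) in wild type and by 0.71 (SE 0.17, adjusted p = 0.00571) in badc1/badc3, against -0.004 and 0.003 with library totals. PGI1 was not called in either genotype. APS1 was called higher in wild type (0.52, SE 0.19, adjusted p = 0.0466), a call lost under 9 of 12 alternatives, with the opposite sign (-0.44) with library totals. APL4, a large subunit best known from non-green tissues, had 10.07, 7.69 and 7.11 CPM in AtWT and 1.23, 2.18 and 2.38 in AtWTtr. In badc1/badc3 it had 11.3, 9.06 and 8.23 CPM in AtBD and 1.88, 3.06 and 3.75 in AtBDtr. The groups stood apart in both genotypes, and APL4 was lower in wild type (log2 95% interval -2.82 to -1.38, SE 0.34, adjusted p = 0.000234) and in badc1/badc3 (-1.71, SE 0.33, adjusted p = 0.00122). The other large subunits, APL1, APL2 and APL3, were not called. APL3 spread most, with 2.53, 13.2 and 4.34 CPM in AtWTtr.

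None of the 5 starch synthases was called in wild type. In badc1/badc3 SS3 fell by 0.67 (SE 0.20, adjusted p = 0.0194), from 24.0, 27.4 and 24.9 CPM to 16.7, 13.3 and 18.0, a call lost without AtBD replicate 2 or AtBDtr replicate 2. SS4 rose by 1.098 (SE 0.37, adjusted p = 0.0383), from 12.03, 8.95 and 5.10 CPM to 24.6, 13.8 and 17.6, and this call was lost under 6 of 12 alternatives. GBSS1 was steady within groups, at 48.1, 44.1 and 45.5 CPM in AtWT and 37.5, 33.8 and 38.5 in AtWTtr, and its difference of -0.33 (SE 0.17) had an adjusted p of 0.138.

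Among the enzymes that phosphorylate and dephosphorylate glucan, PWD had 30.5, 17.9 and 26.7 CPM in AtWT and 5.88, 16.1 and 5.94 in AtWTtr, and 34.8, 37.5 and 26.1 in AtBD and 10.8, 8.65 and 13.2 in AtBDtr. The libraries did not overlap, and PWD fell by 1.43 (SE 0.35, adjusted p = 0.00544) and by 1.59 (SE 0.35, adjusted p = 0.00313). GWD1, which acts before PWD, was not called (-0.53, SE 0.26, adjusted p = 0.132, and -0.36, SE 0.26, adjusted p = 0.318). LSF1, a regulator of starch breakdown, fell by 1.55 (SE 0.47, adjusted p = 0.0179) and by 1.56 (SE 0.47, adjusted p = 0.0207), from 7.03 to 9.86 CPM to 1.48 to 4.78 in wild type. Each LSF1 call was lost without some single library (in wild type AtWT replicate 1, AtWTtr replicate 2 or AtWTtr replicate 3, in badc1/badc3 AtBD replicate 1, AtBD replicate 3 or AtBDtr replicate 1). LSF1 overlaps AT3G01500, a carbonic anhydrase of green tissue, on the same strand, so its reads are uncertain. SEX4 was at 48.8 to 55.0 CPM in AtWT and 39.5 to 66.5 in AtWTtr.

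Among the genes that handle glucans and maltose after release, the cytosolic transglucosidase DPE2 had 85.2, 56.1 and 83.7 CPM in AtWT and 29.8, 30.2 and 32.2 in AtWTtr. In badc1/badc3 it had 115, 133 and 86.0 CPM in AtBD and 32.4, 38.9 and 29.1 in AtBDtr. All tr libraries lay below all others, and DPE2 fell by 1.29 (SE 0.21, adjusted p = 0.000324) and by 1.74 (SE 0.22, adjusted p = 3.34e-05). The maltose exporter MEX1 was called higher in both (0.95, SE 0.27, adjusted p = 0.0127, and 0.84, SE 0.27, adjusted p = 0.0291), against -0.03 and 0.08 with library totals. These MEX1 calls were lost under 3 and 6 of 12 alternatives. The cytosolic phosphorylase PHS2 was higher in wild type (0.72, SE 0.20, adjusted p = 0.0125), against -0.22 with library totals. Its call was also lost without AtWT replicate 2 or AtWTtr replicate 1. The annotated span of PHS2 overlaps AT3G46980 on the same strand, and reads of the overlap cannot be told apart. Plastid phosphorylase PHS1 and the plastid transglucosidase DPE1 were not called.

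Whether the tr difference itself differed between genotypes was tested as an interaction. It was called for 0 of 33 members and for 0 of 19376 genes (0.0%), where 805 genes had an unadjusted p under 0.05, none of them a member. DESeq2 called 4 genes, none of them a member. The largest interaction estimates of opposite sign were those of APL3 (1.22, 95% interval -0.41 to 2.85) and BAM3 (-0.92, -2.98 to 1.15), and these intervals are wide. A call in 1 genotype alone, as for SS3, SS4 or SBE2.2, is therefore not shown to be a difference between genotypes.

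The genotype comparisons of the second set asked whether the knockout altered these transcripts. No member was called in AtBD against AtWT (7 of 33 at an unadjusted p under 0.05, beside 1195 of 19376 genes), where 0.0568% of all genes were called, or in AtBDtr against AtWTtr (1 of 33, beside 1007 of 19376), where 0.0413% were. In AtBD against AtWT, 24 of 33 members had a positive difference and their median was 0.22 (0.00 for all genes), which was -0.02 with library totals (-0.23 for all genes). All 3 AtBD libraries lay above all 3 AtWT libraries for 10 members, where 8.79% of all genes did so, and below them for 0 members (10.9% of all genes). The 10 were PGM1, ISA2, ISA3, LDA, SEX4, BAM3, AMY3, PHS1, PHS2 and DPE2. PHS1, a plastid glucan phosphorylase, had 89.5, 67.3 and 69.5 CPM in AtWT and 138, 161 and 110 in AtBD. Its difference of 0.85 (SE 0.30, adjusted p = 0.625) was called in the fit of these 6 libraries alone (0.85, adjusted p = 0.0381), where the spread of the tr libraries does not enter. ISA3 had 67.8, 67.6 and 52.0 CPM in AtBD (0.65, SE 0.19, adjusted p = 0.465), and PGM1 had 51.8, 56.2 and 45.1 (0.56, SE 0.17, adjusted p = 0.491). DPE2, PHS2, ISA2 and AMY3 had differences of 0.57 (SE 0.21), 0.61 (SE 0.20), 0.58 (SE 0.21) and 0.57 (SE 0.19). Beside these values, all 9 embryo storage genes had a positive and all 7 tested seed coat genes a negative difference in AtBD against AtWT. All 7 green tissue genes also had a negative difference, 6 of them with the groups apart, and their sums were 3294 to 3885 CPM in AtBD and 4313 to 5666 in AtWT. Endosperm sums were 5.97 to 11.84 and 22.7 to 25.6 CPM. None of these marker genes was called, and their part in the result was not tested.

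In AtBDtr against AtWTtr the members' median was 0.07 (0.01 for all genes). All AtBDtr libraries lay above all AtWTtr libraries for 3 members (4.25% of all genes), and below for 0 (2.94% of all genes). These were PGM1, ISA3 and GWD1. ISA3 had 73.3, 86.4 and 57.8 CPM in AtWTtr and 109, 100.0 and 103 in AtBDtr, a difference of 0.52 (95% interval 0.12 to 0.92, adjusted p = 0.911). GBSS1 (0.04, 95% interval -0.32 to 0.39) and SS2 (0.04, -0.39 to 0.47) show how far the data bound a difference in the better measured members. Beside these values, all 7 green tissue genes had a negative difference in AtBDtr against AtWTtr, with a median of -1.51 on the log2 scale. Of these, 6 had an unadjusted p under 0.05 and 0 were called. Their sums overlapped, at 928 to 2594 CPM in AtBDtr and 1551 to 4920 in AtWTtr, and their part in the result was not tested.

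In the first set, 6 of 31 members were lower in the badc-tdna13 libraries, where 5.10% of all genes were called lower, and 0 were higher, where 5.23% were called higher (18522 genes, 2 libraries against 2). They were GBSS1, APL4, LSF1, SBE2.2, PHS1 and ISA2, at least 1 from each role except precursor isomerisation and the amylases. GBSS1 (AT1G32900, chromosome 1, 11920390 to 11923866) had 118 and 126 CPM in COL0 replicates 0 and 1 and 33.4 and 28.5 in badc-tdna13 replicates 0 and 1, and fell by 1.996 (SE 0.15, adjusted p = 0.00824). COL0 replicate 2 and badc-tdna13 replicate 2, the libraries with the same fragments at the loci compared, both had 62.1 CPM, between the groups. BADC3 in this pair was at 64.6 CPM, against 88.6 and 91.4 in COL0 and 6.90 and 3.32 in badc-tdna13 replicates 0 and 1. No fit took the pair as another COL0 library. APL4 had 8.65 and 11.2 against 3.29 and 2.08 CPM (-1.91, SE 0.30, adjusted p = 0.021), and the identical pair had 7.49. SBE2.2 had 95.2 and 97.3 against 47.8 and 52.6 CPM (-0.96, SE 0.14, adjusted p = 0.0185), and PHS1 had 248 and 274 against 142 and 144 (-0.88, SE 0.15, adjusted p = 0.0255). In both, the identical pair again lay between, at 71.6 and 164 CPM. ISA2 fell by 0.76 (SE 0.17, adjusted p = 0.045) and LSF1 by 1.62 (SE 0.31, adjusted p = 0.0312), the latter from 5.60 and 6.40 to 1.64 and 2.29 CPM.

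**Figure D5:**
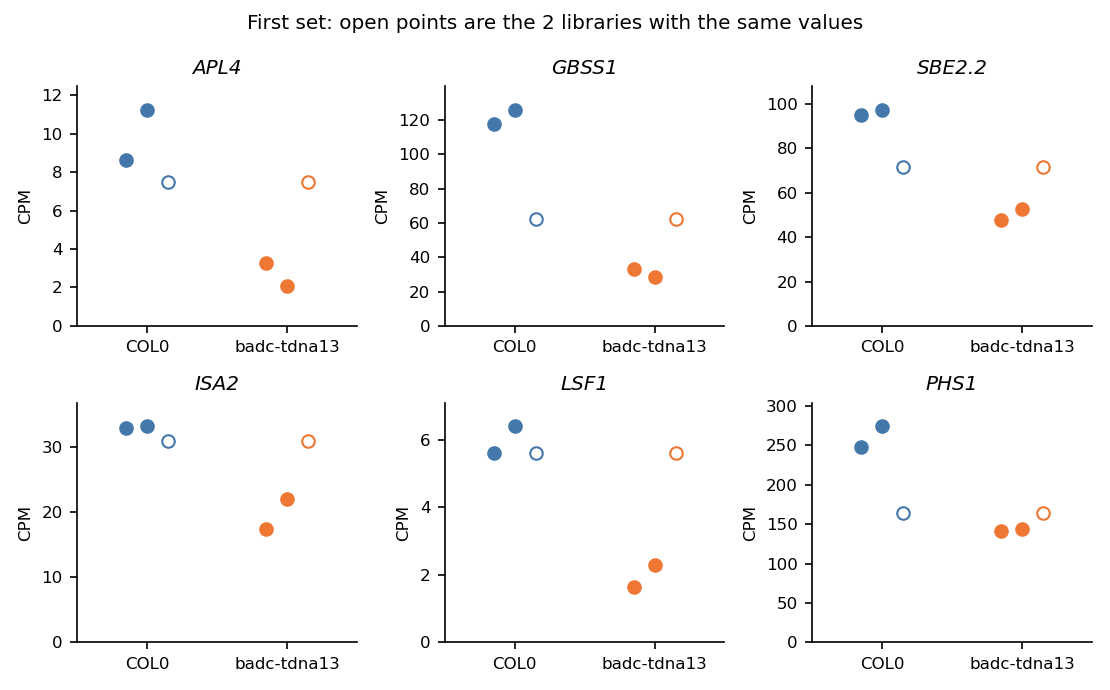
CPM (y axis, from 0) of the 6 genes called in the first set, in each library of COL0 and badc-tdna13; filled points are replicates 0 and 1, open points the pair of libraries with the same values. Filled points of the groups do not overlap, and GBSS1 is at 118 and 126 against 33.4 and 28.5.

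None of the 6 calls held when all 6 libraries entered as labelled (0 called), or without COL0 replicate 0 (0) or COL0 replicate 1 (0), where 0 of all genes were called under each of these settings. The log2 difference of GBSS1 was then -1.301 (adjusted p = 0.809), -2.05 (adjusted p = 0.223) and -1.95 (adjusted p = 0.199). Without badc-tdna13 replicate 0, 5 members were called higher and 11 lower, where 18.9% of all genes were higher and 20.6% lower. Without badc-tdna13 replicate 1, 1 was higher and 16 lower, where 2630 and 2300 of 19206 genes were. The FPKM fits called 2. In the 4 libraries tested, summed CPM of the seed coat genes was 613.8 and 632.4 in COL0 and 725.4 and 820.4 in badc-tdna13, that of the endosperm genes 16.2 and 15.8 against 21.4 and 27.3, and that of the green tissue genes 1391 and 1382 against 1109 and 940.0, so on these 3 lists the groups stood apart. Embryo storage sums (111100 and 108400 against 112600 and 79310) and silique wall sums (120.9 and 108.9 against 105.4 and 139.3) overlapped. The identical pair had 491.9 CPM for seed coat, 13.6 for endosperm, 1723 for green tissue, 47240 for embryo storage and 195.7 for silique wall. Only 7 of 8 seed coat, 4 of 5 endosperm and 4 of 7 green tissue genes were measured in this set. The largest part of the seed coat sum was TT10, at 387.6 and 392.4 against 544.8 and 593.1 CPM. Of 6 seed coat genes tested, 2 had a positive and 4 a negative difference, with 1 called higher and 2 lower. Of 2 endosperm genes tested, 1 was positive and 1 negative. All 5 silique wall genes had the groups apart, 4 higher and 1 lower, with 1 called in each direction. The lower 1 was SHP2, at 57.3 and 58.7 against 25.7 and 27.5 CPM. Of 6 embryo storage genes tested, 1 was positive and 5 negative, 3 of these with the groups apart, and 0 were called. Of 4 green tissue genes tested, 1 was positive and 3 negative, these 3 with the groups apart and 1 of them called lower. The part of these lists in the result was not tested. Among members not called, BAM1 had 369 and 336 CPM in COL0 and 546 and 688 in badc-tdna13 (0.79, SE 0.20, adjusted p = 0.0552), and DPE2 had 118 and 125 against 75.2 and 85.2 (-0.62, SE 0.15, adjusted p = 0.0558). The SBE2.1 share of the summed FPKM of the branching enzymes was 36.7% to 48.9% in the 3 COL0 libraries and 48.8% to 53.1% in the 3 badc-tdna13 libraries, which overlap through the identical pair. APL3, APL4, AMY3 and DPE2 each lie beside a gene on the same strand without a locus of its own in the first set, whose fragments may be counted with them.

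Of 23 other starch genes listed, 22 were tested in the second set and 21 in the first. In AtWTtr against AtWT, 3 of 22 were lower and 1 higher, beside 19.1% and 15.1% of all genes. The plastid ATP importer NTT1 fell by 1.40 (SE 0.26, adjusted p = 0.000822), from a family that feeds ATP to ADP-glucose synthesis. BAM2 fell by 1.17 (SE 0.28, adjusted p = 0.00469) and MFP1, which helps place starch granules, by 1.49 (SE 0.54, adjusted p = 0.0455), while the glucose 6-phosphate importer GPT1 rose by 0.65 (SE 0.18, adjusted p = 0.012). In AtBDtr against AtBD, 4 were lower and 1 higher, beside 16.9% and 12.8% of all genes: NTT1 (-1.82), MFP1 (-1.70), the glucose exporter PGLCT (-0.997) and the phosphatase LSF2 (-0.98) were lower and GPT1 (0.72) was higher, with adjusted p-values of 0.000134 to 0.0334. None of the 22 was called in either genotype comparison of the second set. In the first set 2 of 21 were lower and 2 higher, beside 5.10% and 5.23% of all genes. GPT2, a second glucose 6-phosphate importer, fell by 3.27 (SE 0.22, adjusted p = 0.00824). PTST1, which brings GBSS1 to the granule, fell by 1.14 (SE 0.20, adjusted p = 0.0251). BAM9 (1.68, SE 0.19, adjusted p = 0.012) and GWD2 (1.51, SE 0.20, adjusted p = 0.0154) rose. In the second set GPT2 went the other way without a call. It had 215.7, 187.9 and 191.5 CPM in AtWT and 439.6, 422.0 and 390.3 in AtBD. Of the 22 tested there, 8 had a positive and 14 a negative difference in AtBD against AtWT.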

How the data were processed

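PolyA RNA of developing seeds was sequenced in 18 samples. The submitters' processing notes list TAIR10 as the build and Cuffdiff, Cufflinks and TopHat as tools. The first set is a Cuffdiff table deposited by the authors, with, per the file headers, expected counts (raw fragments) and FPKM for each locus and library; 1633 of its 199206 fragment values were not whole and all were rounded. Its libraries carry numbers, its sample titles letters, so libraries are named by condition and number. Of its 33201 loci, 29961 were tied to 1 gene, 28 members by the deposited identifier and 3 by symbol and position. The second set is a table of raw counts deposited by the authors for 33602 loci, equal to the unstranded column of their per-library files in all 12 libraries. The other columns split 49.931% to 50.671% on 1 strand, so overlapping and antisense genes cannot be told apart. In TAIR10.1, genes on the other strand overlap the spans of APL1, APL4, SS2, SS3, SBE2.1, ISA1, BAM3 and PHS1.

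Tests used edgeR 4.0.16 under R 4.3.3 (filterByExpr, TMM, quasi-likelihood test, Benjamini-Hochberg adjustment over all genes, adjusted p under 0.05). The first set was fitted on 4 libraries, without the identical pair, and the second on 12 with 1 coefficient per group. The labels mention a z-score of translation efficiency, which was not used here. Levels between genes are per kb of TAIR10.1 exons. Log2(FPKM + 1) and log2(FPKM + 0.1) with limma 3.58.1, DESeq2 1.42.0, RLE scaling, no filter, a replicate block, only the 6 libraries compared and leaving out each library were alternatives, and library totals were added later. The fits were tested on simulated data. Members, lists, roles, motifs and the rule to describe every role were chosen with earlier results of these data known. Depth limits the low members, and intervals cover the spread between libraries only. Replicate numbers did not pair the libraries: in each of 4 contrasts, 0 of 3 same-numbered pairs had deviations that correlated above 0.1.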

Additional observations from a re-analysis of the deposited data

Results flagged for a closer look

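For 6 members the genotype difference had opposite signs in the 2 sets and the groups stood apart in both. Other members had opposite signs without standing apart in both sets. In the first set 21 of 31 members had a negative difference, and in AtBD against AtWT 24 of 33 had a positive one. For each of the 6, both badc-tdna13 libraries compared were below both COL0 libraries, and every AtBD library was above every AtWT library. With 2 libraries against 2, 17 of the 31 members of the first set stood apart and lower, and 4 apart and higher. The share of all genes with this opposite pattern was not counted, so the 6 have no background to be read against. The log2 differences in the first and the second set were -0.76 and 0.58 for ISA2, -0.51 and 0.65 for ISA3, -0.49 and 0.34 for SEX4, -0.88 and 0.85 for PHS1, -0.45 and 0.61 for PHS2 and -0.62 and 0.57 for DPE2. ISA2 and PHS1 were called in the first set, and none was called in the second. The difference between the sets was not tested, since their values come from different counting and tables, and the sets differ in more than genotype.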

How the results depend on the processing

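The count of 6 members called in the first set was 0 with all 6 libraries, 2 with log2(FPKM + 1), 2 with log2(FPKM + 0.1), and 0 to 17 when 1 of the 4 libraries was left out, where the single library that remains is taken to vary as those of the other group do. In AtBD against AtWT the count was 1 (PHS1) with only the 6 libraries compared and 0 otherwise. In the tr comparisons the count of 15 stayed between 11 and 19 in wild type and between 10 and 17 in badc1/badc3. The replicate block gave 14 and 13 there and 0 in the genotype comparisons and the interaction. With library totals, 7 calls of wild type changed sign, PGM1 to -0.004, APS1 to -0.44, ISA2 to -0.31, ISA3 to -0.079, LDA to -0.18, PHS2 to -0.22 and MEX1 to -0.033; the median of all genes was -0.99 under that setting and -0.04 with TMM. No other setting turned the direction of a called member. Depth limits statements on the members with few counts, such as LSF1, APL4 and BAM3.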
